A study of Mus musculus with 6 samples.

Results

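The acrosome is the secretory vesicle that caps the sperm head. The transcripts of 10 genes with roles in building and filling it were followed in mouse testis: Acr, Acrbp, Acrv1, Zpbp, Zpbp2, Spaca1, Dpy19l2, Spata16, Gopc and Pick1. They were taken by gene symbol from a table of 54532 genes, and each symbol was found there on exactly 1 row. RNA of whole testis was sequenced in 3 samples labelled 1700052I22Rik-KO (KO), which carry a knockout of a long non-coding RNA gene, and in 3 labelled WT. The study asked what this testis transcript does in spermatogenesis. The sources used here do not give strain, age, the deleted part of the gene or whether the libraries came from separate animals. The p-values therefore reflect how far these 6 samples differ, which may be technical.

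In the round spermatid, vesicles from the Golgi apparatus carry enzymes and matrix proteins to the nucleus, fuse into a single granule, attach to the nuclear envelope through a cytoskeletal plate called the acroplaxome, and spread into a cap. Loss of several of the 10 genes gives round-headed sperm without an acrosome (globozoospermia) in mice, and in men DPY19L2 and SPATA16 are known globozoospermia genes. The 10 genes fall into contents of the vesicle, proteins of the membranes that bind it to the nucleus, and proteins of Golgi traffic.

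Library totals lay between 17635045 counts (KO 2) and 18117593 (WT 1). The targeted transcript had 0, 0 and 0 counts in KO 1 to KO 3, against 185, 175 and 218 in WT 1 to WT 3 (quasi-likelihood test of edgeR, adjusted p = 4.89e-07 by Benjamini and Hochberg). Transcripts of spermatids, the cells that build the acrosome, were plentiful: 10 markers (Tnp1, Tnp2, Prm1, Prm2, Odf1, Akap4, Gapdhs, Spem1, Catsper1 and Tssk2) summed to between 15390 and 18740 counts-per-million units (CPM) in KO and between 16260 and 18540 in WT. Markers of Leydig cells, which make androgen, varied within both genotypes: 8 of them summed to 679, 277 and 473 CPM in KO 1 to KO 3 and to 250, 903 and 714 CPM in WT 1 to WT 3. All 8 lay lower in KO, with a median log2 fold change of -0.33 and 0 called. The groups did not overlap for 1 of the 8, the hormone gene Insl3, against 9.32% of all genes tested. Insl3 had 55.6, 17.4 and 55.0 CPM in KO 1 to KO 3 and 78.8, 83.8 and 82.6 CPM in WT 1 to WT 3. KO 2 and WT 1, the libraries with the lowest Leydig sums, were also the most alike of all 15 library pairs (chi-square over degrees of freedom 4.07), although their genotypes differ. The next pair, KO 1 and WT 3, was almost as alike (4.11), also across genotype and with higher Leydig sums. Of the other cells of the testis, 8 markers of Sertoli cells summed to 1293 to 1365 CPM in KO and 1342 to 1544 in WT, and 8 of macrophages to 58.0 to 80.6 CPM in KO and 75.1 to 101 in WT. The 8 markers of spermatogonia summed to 139 to 154 CPM in KO and 151 to 168.5 in WT, and the 5 of blood to 16.5 to 31.9 CPM in KO and 27.3 to 43.5 in WT. Of the 8 spermatogonia markers 2, Etv5 and Kit, did not overlap between the groups, both lower in KO, against 9.32% of all genes tested. Gfra1 (log2 fold change 0.37) and Stra8 (0.16) lay higher in KO, the other 6 lower, and 0 were called. The 8 markers of the adjoining epididymis summed to 0.167 to 0.501 CPM in KO and 0.111 to 0.281 in WT, with 3 of them at 0 in every library. Fold changes without KO 2 and WT 1 are given beside Zpbp, Zpbp2, Dpy19l2, Spata16, Gopc and Pick1. In whole tissue, fewer spermatids and less RNA per spermatid cannot be told apart.

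Promoter sequences are shown for 4 of the genes that the results turn on: Zpbp2, the highest per length; Acrv1, with the largest estimated difference; Dpy19l2, which split the libraries across genotype; and Pick1, the lowest. The windows are the 250 bases before the RefSeq start (GRCm38.p6, the assembly behind mm10), read 5′ to 3′ on the gene's strand. Capitals mark matches, on either strand, to 5 motifs: the core of the cyclic AMP response element, TGACG; the full element, TGACGTCA, which contains that core; the X-box, GTTGCC and GGCAAC with 2 bases between them; the E-box, CACGTG; and the TATA box, TATAAA.
Zpbp2, chr11:98550847-98551096, plus strand: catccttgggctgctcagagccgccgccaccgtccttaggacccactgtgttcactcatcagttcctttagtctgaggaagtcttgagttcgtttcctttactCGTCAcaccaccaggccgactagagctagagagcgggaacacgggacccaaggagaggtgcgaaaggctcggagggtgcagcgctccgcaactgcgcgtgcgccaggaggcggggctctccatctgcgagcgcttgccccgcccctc
Acrv1, chr9:36692970-36693219, plus strand: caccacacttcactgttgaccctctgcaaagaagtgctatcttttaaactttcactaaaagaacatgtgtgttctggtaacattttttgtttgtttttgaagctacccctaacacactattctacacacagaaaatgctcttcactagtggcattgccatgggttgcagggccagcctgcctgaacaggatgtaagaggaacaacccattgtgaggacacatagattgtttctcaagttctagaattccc
Dpy19l2, chr9:24696294-24696543, minus strand: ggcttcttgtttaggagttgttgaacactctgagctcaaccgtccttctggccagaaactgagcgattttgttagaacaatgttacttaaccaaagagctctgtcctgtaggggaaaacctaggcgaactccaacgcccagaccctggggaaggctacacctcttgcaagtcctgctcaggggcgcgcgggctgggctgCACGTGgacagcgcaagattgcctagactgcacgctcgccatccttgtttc
Pick1, chr15:79228923-79229172, plus strand: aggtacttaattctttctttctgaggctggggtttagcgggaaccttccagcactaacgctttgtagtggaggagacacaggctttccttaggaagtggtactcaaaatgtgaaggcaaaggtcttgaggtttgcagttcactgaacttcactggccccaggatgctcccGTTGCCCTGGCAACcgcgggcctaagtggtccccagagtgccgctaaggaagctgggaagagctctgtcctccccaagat

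The RefSeq table held a promoter for 9 of the 10 genes, all but Acr. The core TGACG was present in 4 of the 9 (Spaca1, Acrbp, Gopc and Zpbp2), and in 17.8% of all 32851 promoters. The Zpbp2 match, on the opposite strand, began 147 bases before the start. The RefSeq start lay 238 bases inside the deposited Acrbp gene and 126 inside that of Spaca1. The matches of these genes therefore fall within the genes as deposited. The E-box occurred in Spata16 and Dpy19l2, and in 6.02% of all promoters. The single X-box match was that of Pick1, 80 bases before the start, where 0.0791% of all promoters (26) have one. The full element and the TATA box matched 0 of the 9 windows, against 1.55% and 12.4% of all promoters. The windows of Acrv1 and Zpbp held 0 matches to any of the 5. GC content was 42.0% for Acrv1, the lowest of the 9, and 65.2% for Gopc, the highest, with a median of 52.4% over all promoters. The motifs were chosen with these sequences in view, and a match describes letters only.

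None of the 10 acrosome genes passed the test of KO against WT. All 10 passed the low-count filter. Over the 19320 genes tested, 0.00518% were called at an adjusted p of 0.05 (1 gene, the target). Of the 10, 0 were called by edgeR, DESeq2 or limma-voom. At an unadjusted p under 0.05 the count was also 0 of 10 in each of these tools, where 4.63% of all genes tested lay under it in edgeR. The median log2 fold change of the 10 was 0.04, against -0.0025 over all genes tested, with 6 of the 10 above 0 against 49.3% of all genes. Every 95% interval lay within 0.5 log2 units of 0, which held for 83.3% of the 12211 tested genes averaging 5 CPM or more. The widest reach was from -0.38 (Pick1) to 0.41 (Acrv1), that is from 0.766-fold to 1.33-fold. With 3 libraries a genotype, differences inside these intervals cannot be told from 0. The intervals are not the limit for a call over all genes. Larger estimated differences were also not called, such as that of Insl3 at -0.94 (edgeR, adjusted p = 0.965).

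**Figure D1:**
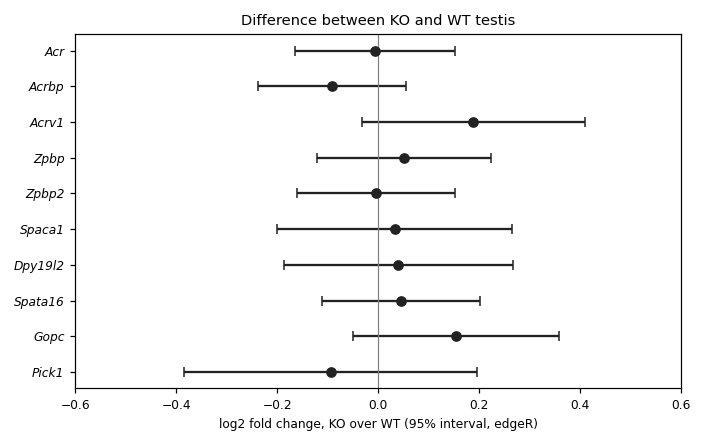
Log2 fold change of KO over WT testis for each of the 10 genes, with 95% intervals from edgeR's fit over all genes; a value above 0 means higher in KO. All 10 intervals include 0, and the outermost limits are -0.38 for Pick1 and 0.41 for Acrv1.

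The contents of the vesicle came first by role. Acr encodes acrosin, the serine protease of the acrosome, which is stored as the inactive proacrosin. Its gene lies on chromosome 15 (mm10, 89568326 to 89574585, plus strand). Acr had 206, 216 and 198 CPM in KO 1 to KO 3 and 211, 215 and 196 CPM in WT 1 to WT 3. The groups covered the same range, with a log2 fold change of -0.0067 (SE 0.074; edgeR, adjusted p = 0.995).

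Acrbp encodes the proacrosin-binding protein, which holds proacrosin in the granule until it is released. The gene is on chromosome 6 (125049689 to 125063267, plus strand). Acrbp had 288, 272 and 264 CPM in KO 1 to KO 3 and 290, 299 and 289 CPM in WT 1 to WT 3. It was the single member of the 10 whose groups did not overlap, with every KO library below every WT library. The nearest values were 288 CPM in KO 1 and 289 CPM in WT 3. Groups did not overlap for 9.32% of all genes tested, so 1 of 10 is near the background. The log2 fold change was -0.09 (95% interval -0.24 to 0.06, edgeR, adjusted p = 0.965). Acrbp shares 90 exonic bases with the antisense gene 4930557K07Rik and 975 with Gm44597 on its own strand, which had at most 37 and 6 counts in any library; the sources used here do not say whether counting used strand.

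Acrbp was set against its binding partner within each library, since a ratio does not depend on library scaling. The ratio of Acrbp to Acr CPM was 1.40, 1.26 and 1.34 in KO 1 to KO 3 and 1.37, 1.39 and 1.48 in WT 1 to WT 3. The ranges overlapped, and the mean log2 ratio was 0.41 ± 0.079 in KO and 0.50 ± 0.056 in WT (SD, n = 3 each; difference -0.09, two-sided exact permutation test, p = 0.3, where 0.1 is the smallest that 3 against 3 allows). The difference was -0.045 without KO 2 and -0.12 without KO 1, the range over libraries left out, and -0.065 without KO 2 and WT 1.

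Acrv1 encodes SP-10, a matrix protein of the acrosome whose gene is switched on in round spermatids. It lies on chromosome 9 (36693220 to 36698843, plus strand). Acrv1 had 199.6, 225 and 240.2 CPM in KO 1 to KO 3 and 199, 221 and 164 CPM in WT 1 to WT 3. The groups overlapped, and WT 3 stood below all other libraries. Its log2 fold change of 0.19 was the largest of the 10 (SE 0.10, 95% interval -0.03 to 0.41; edgeR, unadjusted p = 0.0889, adjusted p = 0.965). Without WT 3 it was 0.079 and without WT 2 it was 0.29, the lowest and highest over the libraries left out in turn. The Acrv1 window had the lowest GC content of the 9 and, like that of Zpbp, 0 motif matches.

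Zpbp and Zpbp2 encode paralogous proteins of the acrosomal matrix that were first found as binders of the zona pellucida, the coat of the egg. In mice, loss of Zpbp disrupts the compaction of the acrosome and makes males sterile, and loss of Zpbp2 lowers fertility. Both genes are on chromosome 11, Zpbp at 11279626 to 11462408 on the minus strand and Zpbp2 at 98551097 to 98558665 on the plus strand. Zpbp had 250.3, 294 and 263 CPM in KO 1 to KO 3 and 275, 264 and 241 CPM in WT 1 to WT 3 (log2 fold change 0.05, 95% interval -0.12 to 0.22). Zpbp2 had 305, 323 and 281 CPM in KO and 316, 303 and 293 CPM in WT (log2 fold change -0.0045, 95% interval -0.16 to 0.15). For both genes KO 2 was the highest of the 6 libraries and the groups overlapped. Without KO 2 and WT 1 the log2 fold changes were 0.029 for Zpbp and -0.021 for Zpbp2. Their adjusted p in edgeR was 0.976 for Zpbp and 0.995 for Zpbp2. Zpbp shares 223 exonic bases with Spata48 on the opposite strand, which held 1124 to 1452 counts a library, so reads of these bases cannot be assigned with certainty.

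The balance of the pair covered overlapping ranges in both genotypes. The CPM ratio of Zpbp to Zpbp2 was 0.821, 0.909 and 0.937 in KO 1 to KO 3 and 0.870, 0.872 and 0.821 in WT 1 to WT 3. The mean log2 ratio was -0.17 ± 0.0995 in KO and -0.23 ± 0.049 in WT (SD, n = 3 each; difference 0.06, two-sided exact permutation test, p = 0.5). The difference was 0.017 without KO 3 and 0.11 without KO 1, the range over libraries left out, and 0.052 without KO 2 and WT 1.

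**Figure D2:**
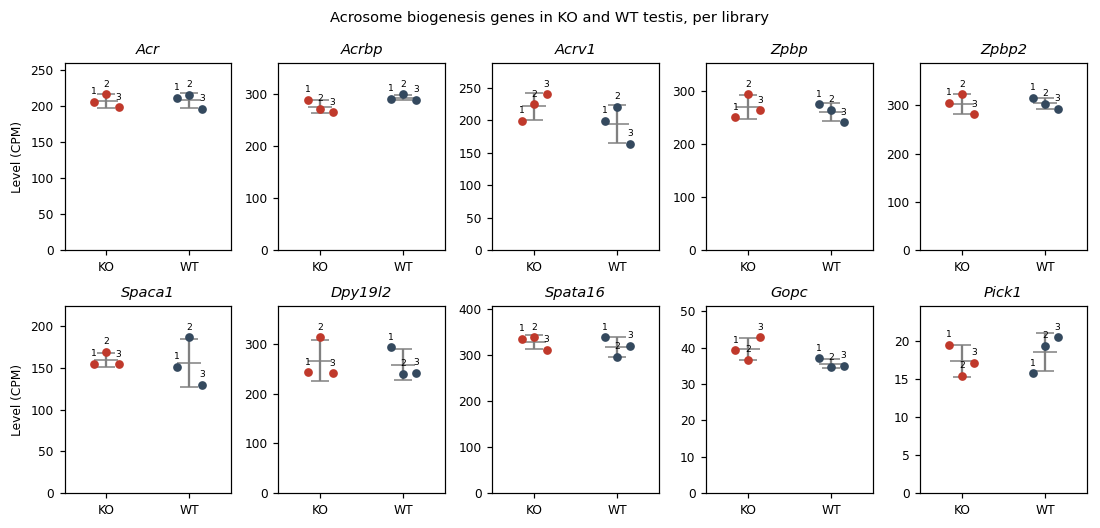
Level of each of the 10 genes in each library (CPM, linear axis from 0), KO on the left and WT on the right; points are libraries with their replicate number, and bars show the mean and SD of 3. Groups overlap for every gene but Acrbp, where KO 1 at 288 CPM and WT 3 at 289 CPM nearly meet.

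Spaca1 and Dpy19l2 encode membrane proteins that fix the acrosome to the nucleus. SPACA1 sits in the inner acrosomal membrane, and mice without it have round-headed sperm. Spaca1 (chromosome 4, 34024874 to 34050191, minus strand) had 155, 169 and 154 CPM in KO 1 to KO 3 and 151, 187 and 130.0 CPM in WT 1 to WT 3. The KO libraries lay close together and inside the WT range, in which the highest library was 1.44-fold above the lowest. The averages were 160 ± 8.43 CPM in KO and 156 ± 28.7 in WT (SD, n = 3 each), a log2 fold change of 0.03 (95% interval -0.20 to 0.27; edgeR, adjusted p = 0.988). The highest and lowest libraries were WT 2 and WT 3. WT 2 also lay above WT 3 for Acr, Acrbp, Acrv1, Zpbp and Zpbp2, and below it for Dpy19l2, Spata16, Gopc and Pick1. The difference in spread between genotypes was not tested.

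DPY19L2 is a protein of the inner nuclear membrane that anchors the acroplaxome to the nucleus. Its gene spans 139 kb of chromosome 9 (24557047 to 24696293, minus strand), and the small gene Cypt4, with 4838 to 7064 counts a library, lies within it on the opposite strand with 0 shared exonic bases. Dpy19l2 had 243, 313 and 241 CPM in KO 1 to KO 3 and 293, 240.1 and 242 CPM in WT 1 to WT 3. KO 2 and WT 1 stood above the other 4 libraries, which lay between 240.1 and 243 CPM. Means were 266 ± 41.1 CPM in KO and 258 ± 30.3 in WT (SD, n = 3 each), a log2 fold change of 0.04 (95% interval -0.19 to 0.27; edgeR, adjusted p = 0.986). Without these 2 libraries the log2 fold change was 0.0097. KO 2 and WT 1 are the libraries with the lowest sums of Leydig markers, 277 and 250 CPM against 473 to 903 in the other 4, and the part of this in the Dpy19l2 levels was not tested. The related genes Dpy19l1, Dpy19l3 and Dpy19l4 had log2 fold changes of -0.02, -0.24 and 0.10, and 0 of the 3 were called in edgeR (adjusted p = 0.988, 0.965 and 0.975).

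Spata16, Gopc and Pick1 act on the Golgi side. SPATA16 is a testis protein of the Golgi and the proacrosomal vesicles. Its gene spans 346 kb of chromosome 3 (26637620 to 26983212, plus strand), the longest of the 10. Spata16 had 335, 338 and 311 CPM in KO 1 to KO 3 and 338, 295 and 320.1 CPM in WT 1 to WT 3. The groups overlapped, with a log2 fold change of 0.05 (SE 0.073, edgeR, adjusted p = 0.976). KO 2 and WT 1 were the highest libraries, and without them the log2 fold change was 0.073.

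GOPC is a Golgi protein with a PDZ domain, made in many tissues, and mice without it have globozoospermia. Gopc (chromosome 10, 52335850 to 52382124, minus strand) had 39.2, 36.7 and 42.8 CPM in KO 1 to KO 3 and 37.0, 34.5 and 35.1 CPM in WT 1 to WT 3. KO 2 lay below WT 1, and the other KO libraries lay above all WT libraries. The averages were 39.6 ± 3.09 CPM in KO and 35.5 ± 1.29 in WT (SD, n = 3 each), a log2 fold change of 0.15 (95% interval -0.05 to 0.36; edgeR, unadjusted p = 0.127, adjusted p = 0.965). Without KO 2 and WT 1 it was 0.24, not called.

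PICK1, another PDZ protein, also acts in vesicle traffic and in mice is needed for the acrosome. Pick1 (chromosome 15, 79229173 to 79249484, plus strand) was the scarcest of the 10, with 19.5, 15.4 and 17.1 CPM in KO 1 to KO 3 and 15.7, 19.3 and 20.4 CPM in WT 1 to WT 3. KO 2 and WT 1, the highest libraries for Dpy19l2, were the lowest for Pick1, and the groups overlapped. The log2 fold change was -0.09 (95% interval -0.38 to 0.20; edgeR, adjusted p = 0.975), the widest interval of the 10. With 1 library left out it ran between -0.20 (without WT 1) and -0.012 (without KO 2), and it was -0.12 without KO 2 and WT 1 together, not called in any. Pick1 shares 1222 exonic bases with Gm49486 on the same strand, which had 1 to 5 counts a library.

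**Figure D3:**
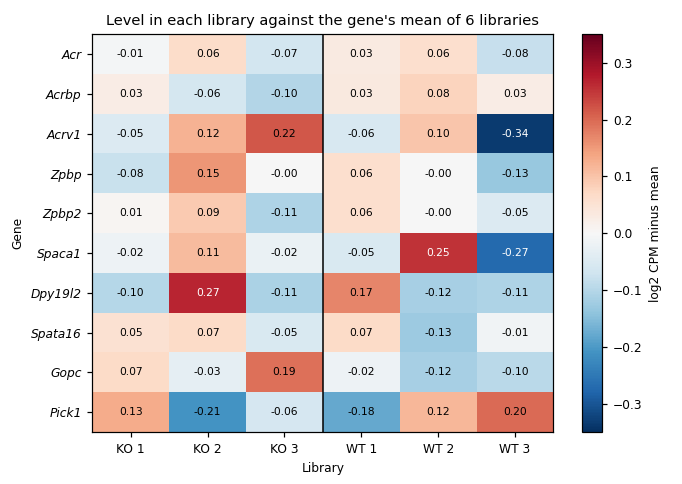
Log2 CPM of each gene in each library minus that gene's mean over the 6 libraries, KO libraries left of the line and WT libraries right of it. The largest departures are Acrv1 in WT 3 (-0.34), Spaca1 in WT 3 (-0.27), Dpy19l2 in KO 2 (0.27) and Spaca1 in WT 2 (0.25), in libraries of both genotypes.

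Libraries of the same genotype differed from each other more than counting alone gives. Counting error of the mean count was between 1.31% (Spata16) and 5.59% (Pick1). The coefficient of variation among the 3 libraries of a genotype was above it in 19 of the 20 gene and genotype pairs, and ran from 1.91% (Acrbp in WT) to 18.4% (Spaca1 in WT). The biological coefficient of variation that edgeR fitted to the 10 genes had a median of 0.083, against 0.098 for tested genes averaging 5 CPM or more.

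No library was the highest or the lowest for all 10 genes. The median departure of the 10 genes from their own means was -2.8e-05, 0.079 and -0.056 log2 units in KO 1 to KO 3 and 0.033, 0.029 and -0.088 in WT 1 to WT 3. KO 2 was the highest library for 4 genes (Acr, Zpbp, Zpbp2 and Dpy19l2) and the lowest for Pick1. WT 3 was the lowest for 4 genes (Acr, Acrv1, Zpbp and Spaca1) and the highest for Pick1. Together the 10 genes took 0.202%, 0.220% and 0.200% of the counts in KO 1 to KO 3 and 0.212%, 0.210% and 0.194% in WT 1 to WT 3. Among 11030 other protein-coding genes averaging 5 CPM or more, those whose log2 CPM over the 6 libraries most resembled the median departure of the 10 were Tada1 (Pearson r = 0.993), Jade1 (0.991), Atf1 (0.989), Hspa9 (0.989) and Hoxd8 (0.986). This describes 6 shared libraries, and 231 genes had an r above 0.9.

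Levels per length separated the genes into a high and a low group. In transcripts-per-million units (TPM), computed from the counts and the deposited gene lengths, Zpbp2 was highest at 472 ± 48.1 in KO and 478 ± 16.8 in WT (SD, n = 3 each). It was followed, by the mean of all 6 libraries, by Spata16 (402 TPM), Acr (348), Spaca1 (260.3), Acrbp (228), Dpy19l2 (201), Zpbp (164) and Acrv1 (150.1). Gopc stood at 9.43 ± 0.526 TPM in KO and 8.58 ± 0.275 in WT, and Pick1 at 6.87 ± 0.607 in KO and 7.43 ± 1.01 in WT. The step from Acrv1 to Gopc was 16.7-fold. Among neighbours in this order the ranges over 6 libraries did not overlap between Acr and Spaca1, Acrv1 and Gopc, or Gopc and Pick1. The other 6 neighbouring pairs overlapped. Compared within libraries, Zpbp2 lay above Spata16, Spata16 above Acr and Dpy19l2 above Zpbp in all 6. The order held in 5 libraries for Spaca1 over Acrbp, Acrbp over Dpy19l2 and Zpbp over Acrv1. The 8 genes of the high group lay at or above the 93.3 percentile of tested genes by TPM, Gopc at 49.96 and Pick1 at 45.0. The deposited lengths count all annotated exons of a gene, 10958 bases for Gopc and 1567 for Acr, so the TPM of a gene whose testis transcript is shorter is understated.

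**Figure D4:**
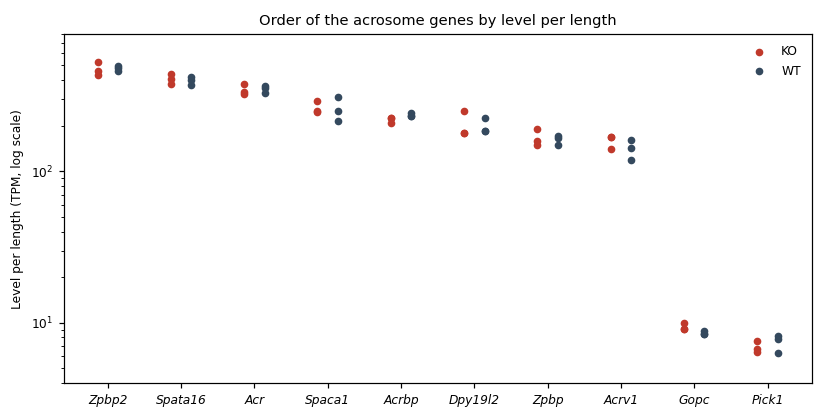
Level per length (TPM, log axis) of each gene in each library, ordered from the highest mean to the lowest, KO points left of WT points. Zpbp2 to Acrv1 lie between 119 and 524 TPM in every library, and Gopc and Pick1 between 6.29 and 10.04.

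Beyond the 10, 63 other genes of acrosome formation and spermatid regulation were set out in 5 lists, the Dpy19l relatives among them. All 63 were tested and 0 were called by edgeR, DESeq2 or limma-voom. At an unadjusted p under 0.05 there were 8 in edgeR (12.7%, against 4.63% of all genes tested), 10 in DESeq2 and 9 in limma-voom. In edgeR this count was 0 without KO 3, 3 without WT 2 and 13 without WT 1. The 4.63% is for edgeR with all 6 libraries, and the share was not computed for the other fits. The groups did not overlap for 6 (9.52%, against 9.32% of all genes). The smallest adjusted p of the 63 in edgeR was 0.965. Their median log2 fold change was 0.05, and 43 lay above 0.

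Of 18 other acrosomal matrix and membrane genes, 11 lay above 0, with a median log2 fold change of 0.06. Those with the smallest p were Cd46, a complement regulator that in mice sits in the acrosomal membrane (17.7 ± 3.73 CPM in KO, 12.5 ± 1.66 in WT, SD, n = 3 each; log2 fold change 0.50, unadjusted p = 0.00752 in edgeR's model over all genes), Izumo3 (0.18), needed in mice for acrosome formation, Eqtn (0.22), encoding equatorin of the acrosomal membrane, and Spaca6 (0.21), a sperm gene needed for fusion with the egg. Each had an adjusted p of 0.965 in edgeR.

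Of 20 genes of Golgi-to-acrosome traffic 12 lay above 0, with a median of 0.0062 and 0 at an unadjusted p under 0.05 in edgeR. The smallest p belonged to Fam71f1 (log2 fold change 0.23), Vps54 (0.16), a tethering subunit for vesicles returning to the Golgi, the kinesin gene Kifc1 (-0.22) and Creb3l4 (0.11), a membrane-bound transcription factor of spermatids. Of 10 spermatid transcription regulators 7 lay above 0 (median 0.05), with Fhl5, a partner of the activator CREM, at 0.26, Sox30 at 0.12, Mybl1 at 0.14 and Taf7l at 0.12. None of these 8 genes was called by edgeR (adjusted p between 0.965 and 0.968).

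Genes of the acroplaxome and of the theca between acrosome and nucleus lay on 1 side with all 6 libraries. All 12 had a log2 fold change above 0, against 49.3% of all genes tested, with a median of 0.21. With each library left out in turn, 9 to 12 of the 12 lay above 0. These counts were added after the data were seen, and the list was chosen with earlier results known. In edgeR 4 of the 12 stood at an unadjusted p under 0.05, against 4.63% of all genes tested. The 4 were Capza3 (0.22), a capping protein subunit for actin filaments of spermatids, Plcz1 (0.21), the phospholipase of sperm that activates the egg, Cylc1 (0.28), encoding cylicin of the perinuclear theca, and Actrt1 (0.27), an actin-related protein. Capza3 had 229, 221 and 259.7 CPM in KO 1 to KO 3 and 211, 198 and 201 CPM in WT 1 to WT 3, with every KO library above every WT library. The same held for Cylc1 and Actrt1, so groups did not overlap for 3 of the 12, against 9.32% of all genes tested. None of the 12 was called over all genes (adjusted p of these 4 = 0.965, edgeR). Relative to each gene's mean, the list median was 0.06, -0.06 and 0.21 log2 units in KO 1 to KO 3 and -0.06, -0.17 and -0.03 in WT 1 to WT 3, so KO 2 and WT 1 lay together. Leaving out WT 2 or KO 3 left 0 of the 12 at an unadjusted p under 0.05, with medians of 0.14 and 0.068. Without KO 2 and WT 1 together all 12 lay above 0, the median was 0.26 and 6 had an unadjusted p under 0.05. The share of all genes under 0.05 was not computed with libraries left out. The 10 spermatid markers had a median log2 fold change of 0.03 with 6 above 0. Markers of macrophages, Leydig cells, blood, spermatogonia and Sertoli cells lay mostly lower in KO, with 0 called. The medians were -0.36 for macrophages (8 of 8 below 0), -0.33 for Leydig cells (8 of 8 below 0) and -0.46 for blood (3 of 3 tested below 0). They were -0.15 for spermatogonia (6 of 8 below 0) and -0.14 for Sertoli cells (5 of 8 below 0). At an unadjusted p under 0.05 in edgeR stood 4 of the 8 macrophage markers, against 4.63% of all genes tested. The 8 spermatocyte markers had a median of 0.015, with 5 above 0 and 0 called. The part of these cells in the values of the acroplaxome list was not tested.

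**Figure D5:**
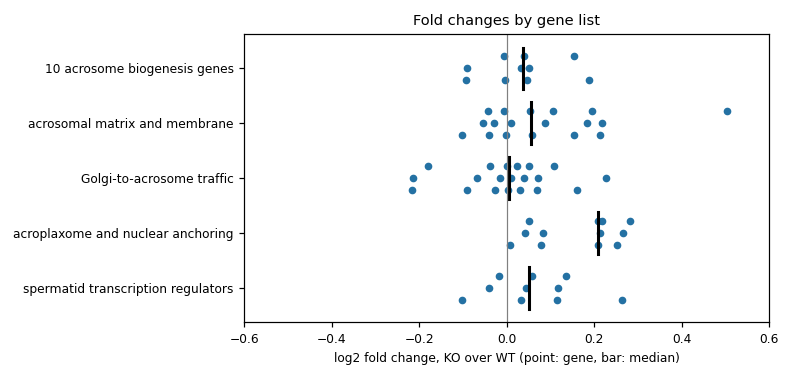
Log2 fold change of KO over WT for each gene (points) and the median (bar) of the 10 acrosome biogenesis genes and 4 lists of related genes; vertical offsets only separate points. The bar of the acroplaxome and nuclear anchoring list is at 0.21, those of the other 4 rows between 0.0062 and 0.06.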

How the data were processed

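The authors deposited raw counts of reads for each Ensembl gene in 6 testis libraries (3 KO, 3 WT), with gene symbol, mm10 coordinates and exonic length, per the file headers. HISAT2 2.0.0 and mm10 are named in the submitters' processing notes; the sources used here do not name the counting tool, annotation release or strand setting. Columns were matched to samples by title. Of 54532 identifiers 54495 were in GENCODE M21, 53585 with the same coordinates, and all 10 gene lengths (the deposited values of another kind, in bases) equalled the M21 exon union.

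Genes were filtered with filterByExpr (minimum count 10, total 15), which left 19320, scaled by TMM and tested with edgeR 4.0.16 (glmQLFit, glmQLFTest, no covariate, Benjamini-Hochberg over all genes, threshold 0.05) in R 4.3.3. Intervals are 95% from moderated standard errors, and CPM values of single genes are TMM-normalised; summed marker levels use library totals. The test was tested on simulated counts. All library pairs differed by more than counting noise, so none was taken for a copy of another; this cannot show that they came from separate animals. Alternatives were other scalings and filters, DESeq2 1.42.0, limma-voom (limma 3.58.1), a replicate block, each library left out, and WT 1 and KO 2 left out together. Named were the 10 genes, the target, up to 4 genes of smallest p per list and the 5 most alike genes. The genes and lists were chosen with earlier results of these data known.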

Additional observations from a re-analysis of the deposited data

How the results depend on the processing

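Of the 10 acrosome genes and the 63 related genes, 0 were called under any of the 14 alternatives, and the lowest adjusted p of a member was 0.569. The number of genes called over the whole table was 1 with all 6 libraries, 2 with DESeq2, 50 with no low-count filter, 9 without WT 1 and KO 2 together, and 1 to 3 with each library left out in turn; the cause was not tested. At an unadjusted p under 0.05 there was 1 member, Acrv1, without KO 1, without WT 2 and with no filter. There was also 1, Gopc, without WT 1 and KO 2 together. The share of all genes under 0.05 was not computed for these fits, and neither gene was called in them.

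The sign of 14 of 140 member fold changes turned, 13 of them with 1 library left out. Over libraries left out, log2 fold changes ran from -0.047 to 0.023 for Acr, -0.048 to 0.046 for Zpbp2, -0.012 to 0.10 for Zpbp, -0.083 to 0.18 for Spaca1, -0.090 to 0.14 for Dpy19l2 and -0.0054 to 0.092 for Spata16. Without WT 1 and KO 2 Spaca1 was at -0.029. The median of the 10 ran from -0.012 to 0.060 over libraries left out.

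With the replicate number as a block edgeR called 1 gene and 0 members, with a median of 0.041. Departures from the group means correlated at -0.173, -0.029 and 0.114 between same-numbered libraries, and from -0.165 to 0.185 between the others. Such departures balance out within each group, so these values cannot show whether the samples were paired. The counts for acroplaxome genes were added after the data were seen; 9 to 12 of the 12 lay above 0 over libraries left out, 0 to 5 had an unadjusted p under 0.05, and with no filter 7 did. Counting depth limits mainly Pick1, with 271 to 371 counts a library.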
